A study of Mus musculus with 8 samples.

Results

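The pore-forming alpha subunits of voltage-gated calcium channels were compared between the dorsal and the ventral medial entorhinal cortex (MEC) of the mouse. They are 8 of the 38553 genes in the deposited expression table and were taken by symbol, as the members of a gene family. *Cacna1c* and *Cacna1d* form L-type channels, *Cacna1a* forms P/Q-type, *Cacna1b* N-type and *Cacna1e* R-type channels, and *Cacna1g*, *Cacna1h* and *Cacna1i* form T-type channels. All 8 were expressed at a mean FPKM (fragments of a gene per length of its exons and per number of fragments mapped) of at least 1 and carried enough alignments to be tested, as did 13674 genes in all. Expression was measured by RNA-Seq in 4 dorsal and 4 ventral libraries. The mice, 13 males of the C57BL/6JolaHsd strain, were 8 weeks old. A 400 µm sagittal slice with the right MEC came from each brain, both regions were cut from it under a microscope, and tissue of 3 or 4 mice was pooled by region in 4 groups, so that error bars show variation between pools and not between animals. The labels name no treatment. Both regions come from the same animals, but the table does not tie a library to a group of mice and the regions were compared unpaired.

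The columns of the table are headed D or V with a number, and for 4 of the 8 libraries that letter differs from the region used here. Dorsal libraries are those headed D1, V1, D2 and V2 and ventral libraries those headed D3, V3, D4 and V4, because their means equal the authors' dorsal and ventral FPKM within 0.1% for 21861 of 21876 genes, while the next best of 70 assignments matched 1273. With the regions read from the headers instead, 1 gene of all those tested was called D>V and 0 V>D (limma), with 721 at an unadjusted p under 0.05. With the 4 libraries on which both readings give the same region (D1, D2, V3 and V4), 0 were called in either direction, with 1240 at an unadjusted p under 0.05. Every direction given here therefore rests on this match of means.

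Voltage-gated calcium channels open on depolarization and turn electrical activity into calcium entry. The alpha subunit holds the pore, the voltage sensors and the binding sites of most drugs, and beta and alpha2delta subunits assist its delivery to the membrane and its gating in high-voltage-activated channels (L, P/Q, N and R). P/Q- and N-type channels trigger transmitter release at presynaptic terminals, L-type channels couple activity to gene expression and to pacemaking, and T-type channels open near the resting potential and support rebound bursts and subthreshold oscillations. In the MEC, whose neurons carry grid firing fields, cellular properties vary along the dorsoventral axis, which gives the comparison of the regions its interest.

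The division between high-voltage-activated and T-type channels can be read in the coding sequence. In each of the 4 homologous domains of the pore, 1 acidic residue forms part of the calcium selectivity filter, and the codon of that residue in the third domain is shown in capitals within 27 coding bases of each member, since it separates the T-type genes from the others. The sequences were read from coding transcripts of GENCODE M21 on the GRCm38 build.
Cacna1c: gtctccaccttcGAAgggtggccagag
Cacna1d: gtctcaacttttGAGggctggcccgcg
Cacna1a: gtgtccacaggaGAGggctggccacag
Cacna1b: gtgtccacgggaGAGgggtggcccatg
Cacna1e: gtctctacagggGAAggatggcctcag
Cacna1g: ctggcctccaagGATggctgggttgac
Cacna1h: ctgtcatccaagGATggctgggtaaac
Cacna1i: ttggcctccaagGATggctgggtgaac

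In the 5 high-voltage-activated genes the codon in capitals encoded glutamate, and in the 3 T-type genes it encoded aspartate. The chosen transcripts encode between 2179 residues in *Cacna1d* and 2381 in *Cacna1g*. A conserved stretch between the first and the second domain, through which beta subunits bind, was found in 5 of 5 high-voltage-activated genes and in 0 of 3 T-type genes. It is shown for the 2 members with the highest FPKM, which were called in opposite directions, with the codon of its conserved tryptophan in capitals.
Cacna1a: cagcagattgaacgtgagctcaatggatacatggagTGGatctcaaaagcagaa
Cacna1e: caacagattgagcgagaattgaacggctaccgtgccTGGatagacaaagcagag

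The alpha subunits differed between the regions in opposite directions, also within a channel type. Dorsal MEC held more *Cacna1a* (P/Q) and *Cacna1i* (T), and ventral MEC more *Cacna1e* (R), *Cacna1g* (T) and *Cacna1h* (T), with mean FPKM differing between 1.20-fold for *Cacna1e* and 1.64-fold for *Cacna1h*. Of the 8 members, 2 were called D>V, beside 2.15% of all genes tested, and 3 were called V>D, beside 1.45%. Calls required an adjusted p under 0.05 in limma (Benjamini-Hochberg, fitted to log2(FPKM + 1) of all genes tested) and mean FPKM differing by over 20%. Only the call of *Cacna1g* held in all 8 fits that each left out 1 library. That of *Cacna1i*, on which the opposite directions within the T type rest, was lost in all 8. The log2 ratio of ventral to dorsal mean FPKM is written log2(V/D). The 4 dorsal and 4 ventral values did not overlap for 2 members with higher dorsal values, beside 6.17% of all genes tested, and for 4 with higher ventral values, beside 4.95%. The median of the size of log2(V/D) was 0.33 over the 8 members and 0.11 over all genes tested, and the median with its sign was 0.15 and −0.01. The limma log2 fold change was also taken from the 4 libraries whose region does not depend on how the columns are read. It was −0.24 for *Cacna1a*, −0.47 for *Cacna1i*, 0.23 for *Cacna1e*, 0.52 for *Cacna1g* and 0.37 for *Cacna1h*. These directions were fixed in advance, since the values of these members did not overlap between the regions and the 4 libraries are among the 8. None was called with 2 libraries per region. Of the 8 members, 3 had an unadjusted p under 0.05 in that fit, beside 1240 of all genes it tested. In bulk tissue, fewer cells of a type and less RNA per cell cannot be told apart.

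**Figure D1:**
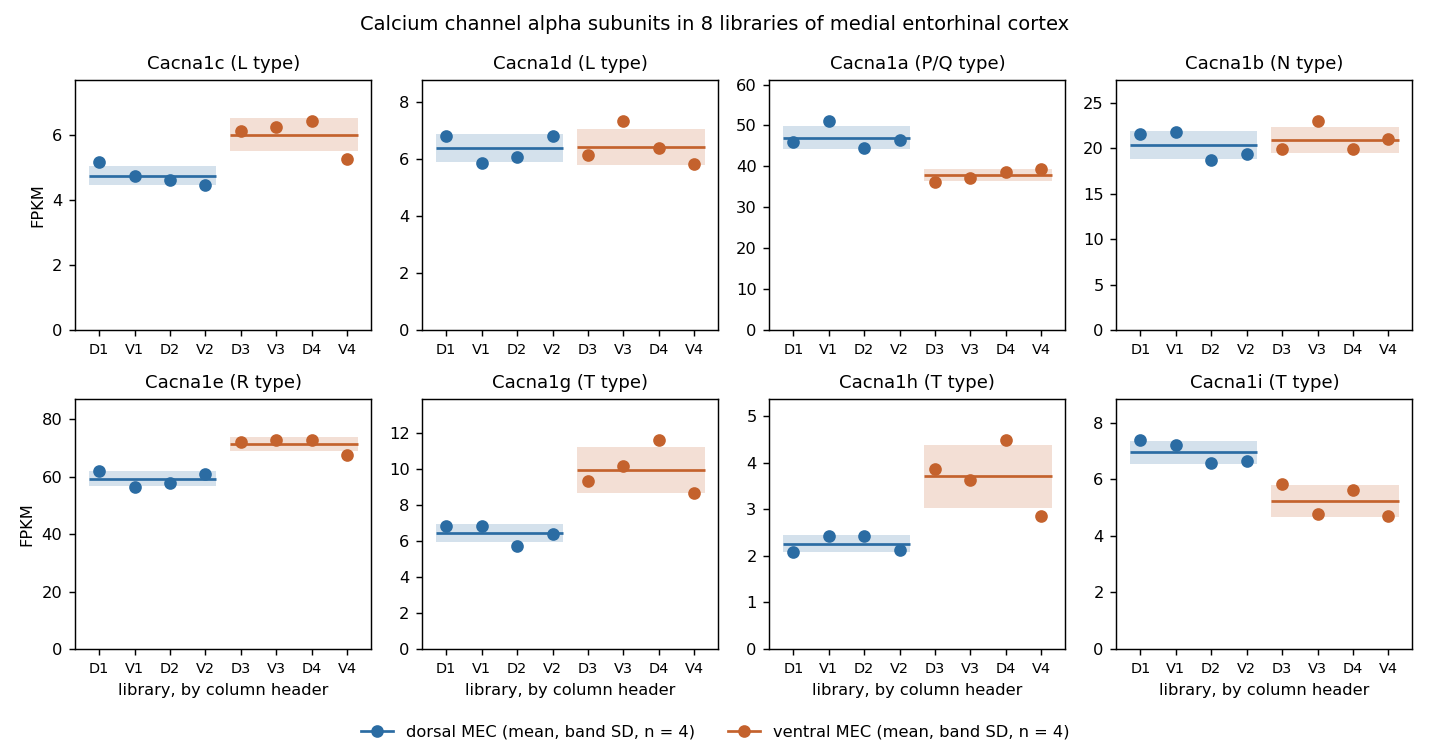
FPKM of each alpha subunit (y axis, from 0) in the 8 libraries (x axis, by column header), with points for libraries, lines for the mean and bands for the SD of each region (n = 4). Ventral points lie above dorsal points for *Cacna1c*, *Cacna1e*, *Cacna1g* and *Cacna1h* and below them for *Cacna1a* and *Cacna1i*, and the regions overlap for *Cacna1b* and *Cacna1d*.

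Levels are set side by side between members as FPKM, which is per length of exon. Other differences between genes in how well they are measured were not corrected for here. *Cacna1e* and *Cacna1a* led in both regions, with mean FPKM over the 8 libraries of 65.3 and 42.4, followed by *Cacna1b* at 20.7. In dorsal MEC the order of mean FPKM went on with *Cacna1i* (6.96), *Cacna1g* (6.45), *Cacna1d* (6.40), *Cacna1c* (4.75) and *Cacna1h* (2.27). In that order the libraries of *Cacna1i* and *Cacna1g* overlapped, as did those of *Cacna1g* and *Cacna1d*, while all other neighbours were apart. In ventral MEC the order after *Cacna1b* was *Cacna1g* (9.94), *Cacna1d* (6.44), *Cacna1c* (6.01), *Cacna1i* (5.23) and *Cacna1h* (3.71), and there the libraries of *Cacna1d* and *Cacna1c* overlapped, as did those of *Cacna1c* and *Cacna1i*. Thus *Cacna1i* came next after *Cacna1b* in dorsal MEC and only before *Cacna1h* in ventral MEC.

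Of the high-voltage-activated genes, *Cacna1a* (Cav2.1, chr8:84388440-84640246, plus strand) encodes the channel that drives release at most fast central synapses and the calcium current of Purkinje cells. Its FPKM was 46.0, 51.0, 44.4 and 46.5 in the dorsal libraries D1, V1, D2 and V2 and 36.2, 37.1, 38.6 and 39.4 in the ventral libraries D3, V3, D4 and V4. Every dorsal library lay above every ventral library. Mean FPKM was 47.0 ± 2.81 (SD, n = 4) in dorsal and 37.8 ± 1.43 in ventral MEC, a log2(V/D) of −0.31, and the limma log2 fold change was −0.30 ± 0.06 (SE) with an adjusted p of 0.0240. The call was lost when every library was rescaled to the same total FPKM (adjusted p = 0.0782 in limma) and without any of the libraries D1, V1, V2, D3 and D4, the adjusted p lying between 0.0425 and 0.0872 over the 8 fits that each left out 1 library.

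*Cacna1e* (Cav2.3, chr1:154390731-154884501, minus strand) encodes the R-type channel, which is found in dendrites and spines as well as in terminals. Its dorsal FPKM was 61.9, 56.4, 57.9 and 61.0 and its ventral FPKM was 72.3, 72.7, 72.8 and 67.7, in the same order of libraries. The regions did not overlap, and 3 of the 4 ventral libraries were nearly equal while V4 lay lower. On average *Cacna1e* reached 59.3 ± 2.58 in dorsal and 71.4 ± 2.44 in ventral MEC (SD, n = 4), a 1.20-fold difference and a log2(V/D) of 0.27, just past the threshold of 20%. The limma log2 fold change was 0.26 ± 0.06 (SE) with an adjusted p of 0.0337. Among the fits that left out 1 library it was called only without V4, with adjusted p between 0.0438 and 0.120, and the call was lost with libraries rescaled to the same total (adjusted p = 0.0614 in limma) and without the mean-variance trend of limma (adjusted p = 0.0608).

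*Cacna1b* (Cav2.2, chr2:24603887-24763152, minus strand), the N-type channel of presynaptic terminals, had dorsal FPKM of 21.6, 21.8, 18.7 and 19.4 and ventral FPKM of 19.9, 22.9, 19.9 and 21.0. The regions overlapped over nearly their whole ranges. Means of 20.4 ± 1.55 in dorsal and 20.9 ± 1.43 in ventral MEC (SD, n = 4) were found, and the 95% interval of the limma log2 fold change reached from −0.13 to 0.20 (adjusted p = 0.860).

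The L-type genes were not called. *Cacna1c* (Cav1.2, chr6:118587240-119196418, minus strand), the main L-type channel of cortical neurons and of the heart, had dorsal FPKM of 5.16, 4.75, 4.61 and 4.48 and ventral FPKM of 6.12, 6.24, 6.42 and 5.27. All ventral values lay above all dorsal values, the closest pair being V4 and D1. This gave a mean FPKM of 4.75 ± 0.296 in dorsal and 6.01 ± 0.507 in ventral MEC (SD, n = 4), a log2(V/D) of 0.34, and the limma log2 fold change of 0.28 ± 0.08 (SE) did not pass the threshold (adjusted p = 0.0904). Its unadjusted 95% interval reached from 0.11 to 0.46.

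*Cacna1d* (Cav1.3, chr14:30039939-30491455, minus strand), the L-type channel that opens at more negative potentials and supports pacemaking, had dorsal FPKM of 6.82, 5.88, 6.08 and 6.81 and ventral FPKM of 6.17, 7.33, 6.40 and 5.85. The highest and the lowest of the 8 values were both ventral. The mean FPKM was 6.40 ± 0.490 in dorsal and 6.44 ± 0.638 in ventral MEC (SD, n = 4), and the 95% interval of the limma log2 fold change was −0.18 to 0.19 (adjusted p = 0.985).

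The 3 T-type genes were called, but not in 1 direction. *Cacna1g* (Cav3.1, chr11:94408391-94474198, minus strand), the T-type channel of thalamic relay cells and of many cortical neurons, had dorsal FPKM of 6.83, 6.81, 5.72 and 6.42 and ventral FPKM of 9.36, 10.2, 11.6 and 8.66. Every ventral library lay above every dorsal library, D4 being the highest. Its mean FPKM was 6.45 ± 0.517 in dorsal and 9.94 ± 1.26 in ventral MEC (SD, n = 4), a 1.54-fold difference and a log2(V/D) of 0.63. The limma log2 fold change was 0.55 ± 0.09 (SE) with an adjusted p of 0.0110, and it was called in all 8 fits that left out 1 library (adjusted p between 0.0116 and 0.0357).

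*Cacna1h* (Cav3.2, chr17:25374285-25433783, minus strand), a T-type channel known from sensory neurons and the hippocampus, was the least expressed member. Its dorsal FPKM was 2.09, 2.42, 2.43 and 2.12 and its ventral FPKM was 3.87, 3.63, 4.48 and 2.85. The regions did not overlap, but the ventral values were spread more widely, with a coefficient of variation of 18.3% against 8.26% in dorsal MEC. The mean FPKM was 2.27 ± 0.187 in dorsal and 3.71 ± 0.677 in ventral MEC (SD, n = 4), a log2(V/D) of 0.71. The limma log2 fold change was 0.52 ± 0.11 (SE), smaller than the ratio because 1 was added to low values, with an adjusted p of 0.0340. Of the fits that left out 1 library, it was called only in the fit without V4, with adjusted p between 0.0155 and 0.106.

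*Cacna1i* (Cav3.3, chr15:80287238-80398279, plus strand), the slowly inactivating T-type channel known from the thalamic reticular nucleus, had dorsal FPKM of 7.38, 7.23, 6.59 and 6.64 and ventral FPKM of 5.82, 4.79, 5.63 and 4.70. All dorsal values lay above all ventral values, and the other 2 T-type genes had the opposite order. The mean FPKM was 6.96 ± 0.407 in dorsal and 5.23 ± 0.573 in ventral MEC (SD, n = 4), and the limma log2 fold change was −0.36 ± 0.08 (SE) with an adjusted p of 0.0479. This was the weakest of the 5 calls, lost with any 1 library left out (adjusted p between 0.0595 and 0.142 in limma), without the FPKM filter (0.0523), with a minimum FPKM of 5 (0.0526) and with libraries rescaled to the same total (0.164).

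**Figure D2:**
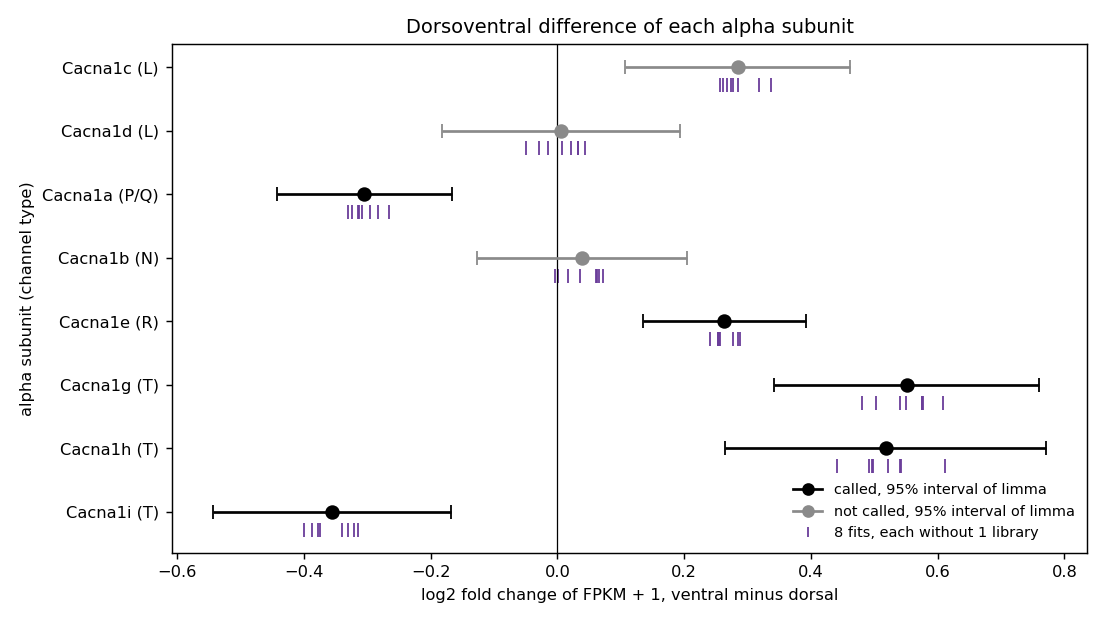
Limma log2 fold change of FPKM + 1, ventral minus dorsal (x axis), of each alpha subunit (y axis), with its 95% interval as bars, and the values of the 8 fits that each left out 1 library as ticks beneath. Called members are black and the others grey, and the ticks stay on the same side of 0 for all members but *Cacna1b* and *Cacna1d*.

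Summed by channel type, the composition of the alpha subunits shifted from P/Q toward R between dorsal and ventral MEC. *Cacna1a* made up 29.2, 32.6, 30.3 and 30.3% of the summed FPKM of the 8 members in the dorsal libraries and 22.7, 22.5, 23.3 and 25.3% in the ventral libraries. *Cacna1e* made up 39.2, 36.1, 39.5 and 39.8% in the dorsal and 45.3, 44.1, 43.9 and 43.6% in the ventral libraries. Both shares were apart between the regions, whereas N-type (13.3 ± 0.654% in dorsal and 13.0 ± 0.895% in ventral MEC), L-type (7.26 ± 0.331% and 7.70 ± 0.439%) and T-type (10.2 ± 0.281% and 11.7 ± 1.13%) shares overlapped (SD, n = 4). These shares and sums are descriptions of members with known differences and were not tested.

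**Figure D3:**
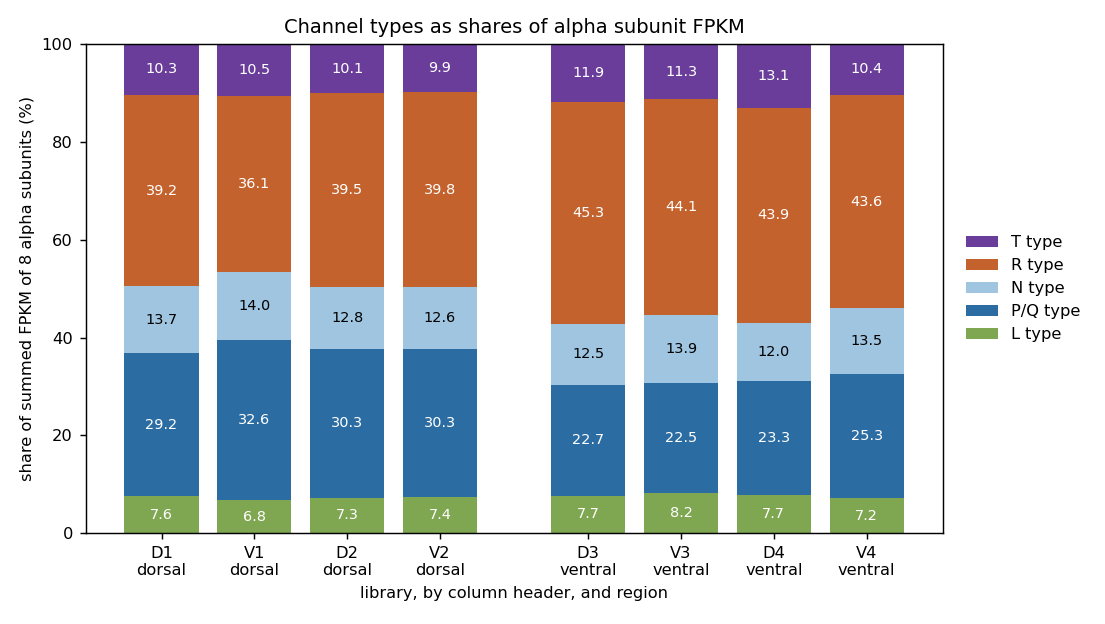
Share of each channel type in the summed FPKM of the 8 alpha subunits (y axis, %) in each library (x axis, by column header and region). The P/Q segment is smaller and the R segment larger in each of the 4 ventral bars, and the L, N and T segments overlap between the regions.

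The P/Q, N and R types form the Cav2 family. Their summed FPKM was nearly level at 127 ± 3.91 in dorsal and 130 ± 2.28 in ventral MEC, with overlapping libraries. Summed T-type FPKM was 15.7 ± 0.843 in dorsal and 18.9 ± 2.26 in ventral MEC and also overlapped, the ventral library V4, at 16.2, lying below the dorsal library V1, at 16.5. Summed L-type FPKM was 11.1 ± 0.628 and 12.4 ± 1.03, and the sum of all 8 members was 153 ± 5.01 and 161 ± 4.84 (SD, n = 4).

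Ratios between members within a library do not depend on how libraries are scaled to each other. The ratio of *Cacna1e* to *Cacna1a* FPKM was 1.34, 1.11, 1.30 and 1.31 in the dorsal libraries and 1.998, 1.96, 1.88 and 1.72 in the ventral libraries. The ratio of *Cacna1g* to *Cacna1i* was 0.924, 0.942, 0.869 and 0.968 in the dorsal libraries, where *Cacna1i* exceeded *Cacna1g* in every library, and 1.61, 2.12, 2.06 and 1.84 in the ventral libraries, where *Cacna1g* exceeded *Cacna1i* in every library. By FPKM, the leading T-type gene was therefore *Cacna1i* in 4 of 4 dorsal and *Cacna1g* in 4 of 4 ventral libraries.

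Within the summed T-type FPKM, *Cacna1i* made up 44.4 ± 0.720% in dorsal and 27.8 ± 2.36% in ventral MEC, *Cacna1g* 41.1 ± 1.57% and 52.7 ± 2.42%, and *Cacna1h* 14.5 ± 1.55% and 19.5 ± 1.38% (SD, n = 4). All 3 shares were apart between the regions. The ratio of *Cacna1h* to *Cacna1i* was 0.327 ± 0.0358 in dorsal and 0.706 ± 0.0871 in ventral MEC, that of *Cacna1a* to *Cacna1b* 2.31 ± 0.121 and 1.81 ± 0.139, and that of *Cacna1c* to *Cacna1d* 0.745 ± 0.0636 and 0.937 ± 0.0727. These ratios did not overlap between the regions either, also for the L-type pair, of which neither gene was called. For *Cacna1e* to *Cacna1a* and for *Cacna1g* and *Cacna1h* to *Cacna1i*, the lack of overlap followed from members that were themselves apart in opposite directions. The same holds for the share of *Cacna1i* in the T-type sum. The ratios are descriptions and were not tested.

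**Figure D4:**
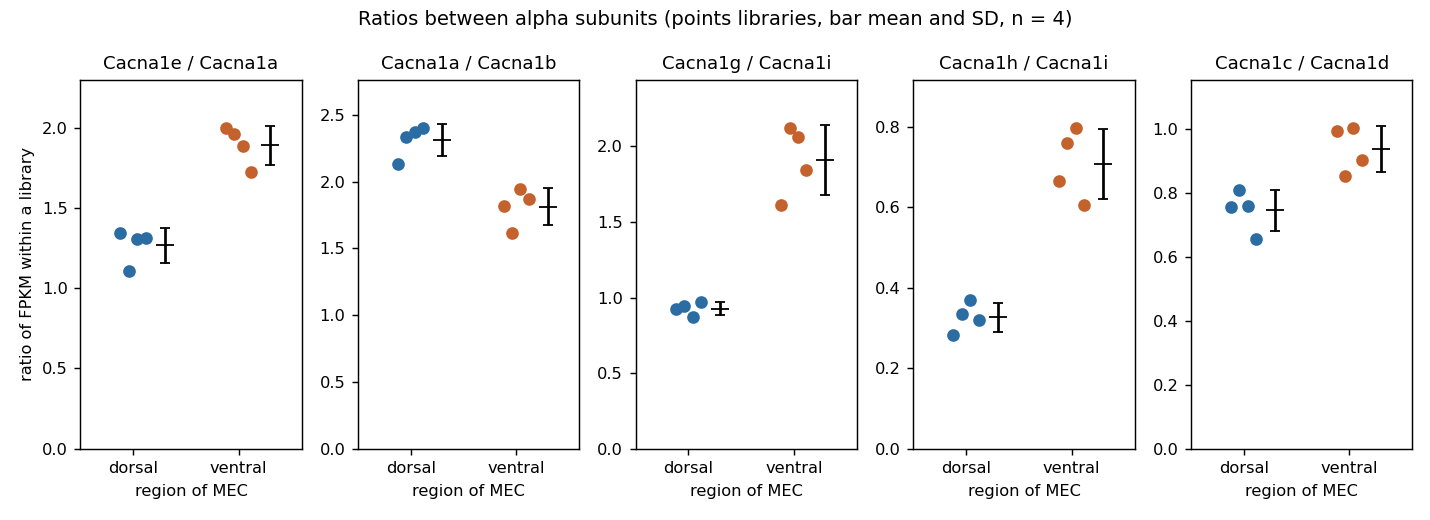
Ratio of FPKM between pairs of alpha subunits within a library (y axis, from 0) by region (x axis), with points for libraries and the mean and SD of each region beside them (n = 4). In all 5 panels the dorsal and ventral points are apart, with *Cacna1g* to *Cacna1i* passing from below 1 in dorsal to above 1 in ventral MEC. For *Cacna1e* to *Cacna1a* and for the ratios to *Cacna1i*, this followed from members apart in opposite directions.

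Genes that share exons with a member could add to its reads, since the sources used here do not state how strand was handled. *Gm16183* lies antisense to *Cacna1a* (mean FPKM 0.979 in dorsal and 0.853 in ventral MEC), *Chdh* opposite *Cacna1d* (1.33 and 1.13), and *Tpsg1* opposite *Cacna1h*, listed at 0 in every library. The positions given above are those of GENCODE M21, and the authors' loci, from Ensembl release 73, have the same start and end for *Cacna1a*, *Cacna1b*, *Cacna1g* and *Cacna1i* and others for the remaining 4 members.

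Lists of genes known to build, anchor or follow these channels held 35 genes, of which 28 were tested, 2 were called D>V, beside 2.15% of all genes tested, 1 was called V>D, beside 1.45%, and 25 were not called. The remaining alpha subunits *Cacna1f* and *Cacna1s* and the RGK inhibitors *Rem1*, *Rem2*, *Gem* and *Rrad* all had a mean FPKM under 1 and were not tested. The summed FPKM of the beta subunits lay between 180 and 209 in dorsal and between 149 and 173 in ventral libraries, and that of the alpha2delta subunits between 94.6 and 102 and between 77.0 and 85.5, with no overlap in either list. Each of these lists held 1 called gene, *Cacnb4* and *Cacna2d3*, and its other tested genes lay on both sides of 0. The sums were not tested.

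The beta subunit *Cacnb4*, by far the most expressed of the 4, had dorsal FPKM of 138, 125, 128 and 148 and ventral FPKM of 91.6, 97.5, 85.1 and 112, with no overlap. Its log2(V/D) was −0.48 and it was called D>V (adjusted p = 0.0176 in limma), in 5 of 8 fits that left out 1 library (adjusted p between 0.00926 and 0.0636), the exceptions being those without D1, V2 and D3. The other 3 beta subunits were not called, with log2(V/D) of 0.29 for *Cacnb3*, 0.02 for *Cacnb1* and −0.10 for *Cacnb2*.

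The alpha2delta subunit *Cacna2d3*, which like its relatives raises the number of channels at the membrane, had dorsal FPKM of 43.8, 47.0, 41.8 and 41.6 and ventral FPKM of 28.7, 32.0, 30.4 and 28.2. The regions were far apart against their own spread, with a log2(V/D) of −0.55 and an adjusted p of 0.00216 in limma, and it was called in 8 of 8 fits that left out 1 library. *Cacna2d1* (log2(V/D) of −0.14) and *Cacna2d2* (0.31) were not called, and *Cacna2d4* was not tested.

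None of the 7 active zone proteins that tether Cav2 channels near release sites was called in limma, and 1 had an unadjusted p under 0.05. In the same fit, 2191 of all 13674 genes tested had an unadjusted p under 0.05. Their log2(V/D) ranged from −0.27 for *Rims1* to 0.12 for *Erc1*, and the most expressed of them, *Pclo*, *Rims1* and *Bsn*, had mean FPKM of 111, 57.6 and 51.2. None of the 10 calcium-binding regulators and anchors of L-type channels was called either, 1 having an unadjusted p under 0.05, with log2(V/D) between −0.43 for *Cabp1* and 0.22 for *Stac2*. Among these, *Calm2* and *Camk2a* had mean FPKM of 1247 and 407.

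Of the 4 potassium channels opened by calcium entry, *Kcnn3*, a small-conductance channel, was called V>D. Its dorsal FPKM was 5.82, 5.18, 5.25 and 5.30 and its ventral FPKM was 7.16, 6.54, 7.77 and 6.69, a log2(V/D) of 0.39 with no overlap (adjusted p = 0.0405 in limma). It was called only without V3 among the fits that left out 1 library (adjusted p between 0.0424 and 0.124), and not with libraries rescaled to the same total (0.0603). *Kcnma1*, *Kcnn2* and *Kcnn1* were not called, with log2(V/D) of −0.13, 0.11 and 0.06.

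**Figure D5:**
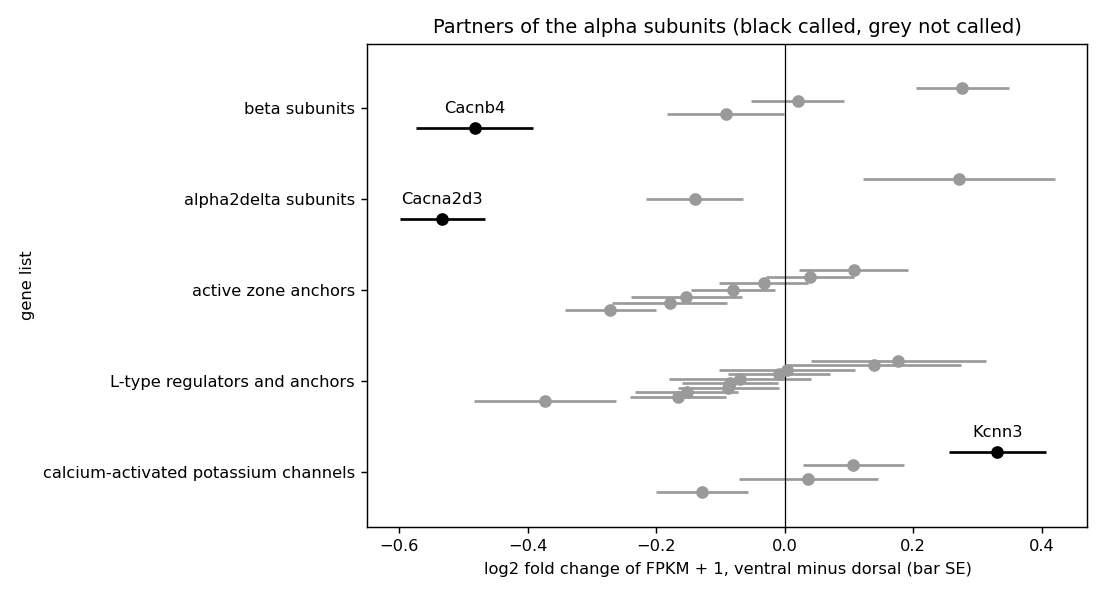
Limma log2 fold change of FPKM + 1, ventral minus dorsal, with its SE (x axis), of the 28 tested genes in lists of channel partners (y axis). The called genes are black and named, with *Cacnb4* and *Cacna2d3* on the dorsal side and *Kcnn3* on the ventral side, and the 25 grey genes lie between them.

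The genes whose profile over the 8 libraries was most like that of a called member were found by the root mean square difference of centred log2(FPKM + 1). For *Cacna1e* these were *Nav1* (0.0264), *Pdgfra* (0.0372) and *L1cam* (0.0418), where the member's own root mean square about its mean was 0.140. For *Cacna1a* they were *Dock5* (0.0502), *Gm9938* (0.0520) and *Epha3* (0.0533), against 0.164. For *Cacna1i* they were *Tmem128* (0.0575), *Dbc1* (0.0640) and *AC129605.1* (0.0645), against 0.201.

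For *Cacna1g* they were *Tnc* (0.0922), *Pcdh19* (0.0960) and *Zbbx* (0.0974), against 0.300. For *Cacna1h* they were *Ntsr1* (0.0805), *Nptxr* (0.0830) and *D430019H16Rik* (0.0915), against 0.294. No gene appeared beside more than 1 member, and the likeness is a description over 8 libraries that are split by region.

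Markers of several cell types moved with the region. Neuronal markers were present in all libraries, and 0 of 3 glutamatergic markers (summed FPKM 201 to 225 in dorsal and 181 to 203 in ventral libraries) and 0 of 3 GABAergic markers (128 to 132 and 124 to 137) were called in limma, with 0 and 2 at an unadjusted p under 0.05. Of the parvalbumin interneuron markers 2 of 3, *Pvalb* and *Syt2*, were called D>V. The summed FPKM of all 3 was 52.4 to 61.3 in dorsal and 34.6 to 42.8 in ventral libraries. Most of that sum was *Kcnc1*, which was not called (adjusted p = 0.0931 in limma). Its mean FPKM was 34.7 in dorsal and 27.7 in ventral MEC. The somatostatin markers *Sst* and *Elfn1*, 2 of 2, were called V>D (summed FPKM 85.1 to 155 and 175 to 268). All 5 oligodendrocyte markers were called D>V (684 to 898 and 388 to 499).

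Of the genes listed as markers of CA1 and subiculum, 3 of 3 (*Fibcd1*, *Fn1* and *Nts*) were called V>D, with summed FPKM of 10.2 to 14.1 in dorsal and 20.7 to 26.9 in ventral libraries. *Nts* does not mark that tissue alone, since the authors name it among genes that distinguish layer Va, a deep layer of the MEC itself. Most of the summed FPKM of these 3 genes was *Fn1*, with mean FPKM of 10.8 in dorsal and 16.6 in ventral MEC. *Fn1* was called in 1 of 8 fits that left out 1 library, and *Fibcd1* and *Nts* in 8 of 8. Of 4 leptomeningeal fibroblast markers 3 were tested and 1, *Dcn*, was called V>D (26.3 to 35.0 and 49.5 to 63.3). Most of that sum was *Dcn*, with mean FPKM of 24.3 in dorsal and 48.4 in ventral MEC. Of 3 markers of layer II of the MEC itself, *Calb1* was called V>D and *Wfs1* D>V. The third, *Reln*, was not called, with a log2(V/D) of 0.18. The summed FPKM of all 3 was 104 to 123 in dorsal and 86.7 to 101 in ventral libraries. Most of it was *Wfs1*, with mean FPKM of 76.6 in dorsal and 52.5 in ventral MEC. None of the astrocyte (127 to 133 and 144 to 154), microglial (34.5 to 36.5 and 38.6 to 42.3), endothelial (9.79 to 13.3 and 7.22 to 10.2), mural (35.5 to 49.6 and 32.6 to 42.3), dentate granule cell (3.94 to 5.03 and 3.19 to 4.26) and thalamic (8.29 to 12.1 and 11.2 to 14.7) markers that were tested was called in limma. At an unadjusted p under 0.05 were 3 of 4 astrocyte, 2 of 4 microglial, 1 of 3 endothelial, 0 of 3 mural, 1 of 1 dentate and 1 of 3 thalamic markers. So were 2191 of all 13674 genes tested. No marker in any list was at 0 in every library. The part of these cell and tissue markers in the differences of the alpha subunits was not tested.

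Over all genes tested, 294 were called D>V and 198 V>D (limma), 59.8% of the calls being D>V, and with libraries rescaled to the same total 195 and 201 were called, 49.2% being D>V. Summed FPKM lay between 310418 and 341402 in dorsal and between 298763 and 335328 in ventral libraries. Among the members, rescaling kept the calls of *Cacna1g* and *Cacna1h* and the direction of all 5 called members. The fragments behind each value were not used here, so that counting error was not separated from the spread between pools.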

How the data were processed

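RNA was extracted from pooled dorsal and ventral MEC (RNA integrity numbers 7.1 to 8.5), and cDNA was amplified from 120 ng per sample. Per the submitters' processing notes, the authors used CASAVA 1.8, TopHat2 2.0.8 and Cuffdiff. The authors made the deposited FPKM values with Cuffdiff 2 on Ensembl release 73 (GRCm38), which sums over transcripts, divides by exon length and scales libraries to each other. The authors' comparison table gives regional mean FPKM, used to assign columns to regions, and marks genes with too few alignments, left out here. It also gives their fold changes, p-values and q-values, which were not used, and 4 columns of per-sample values by condition and replicate number were not used either, since they name no sample.

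Genes with a mean FPKM of at least 1 were tested by limma 3.58.1 (R 4.3.3), two-sided, on log2(FPKM + 1), with the variance trended on the mean and with Benjamini-Hochberg adjustment over 13674 genes. Fold changes on this scale understate the change of low genes. No count-based test was run. The fit was tested on simulated data. All 8 members are named, and of other lists the called genes or up to 3 of the highest mean FPKM, the ends of each range, and the 3 genes most like each called member. A gene this rule takes is not reported here. Genes named for the end of a range, or given to complete a subunit family or potassium channel list, were chosen after their values were seen. So were *Kcnc1* and *Reln*, uncalled genes named for their part in a marker sum. The members and lists were chosen with earlier results of these data known. Alternatives changed the added constant (0.1), the filters, the ratio threshold, the scaling, the trend, library weights, the regions and each library. The marker lists are those whose results the report gives. Python 3.11.15, NumPy 2.4.6, pandas 2.3.3, Biopython 1.88 and matplotlib 3.10.9 were used.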

Additional observations from a re-analysis of the deposited data

Results flagged for a closer look

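The ventral library headed V4 stood apart for *Cacna1e*, with an FPKM of 67.7 where the other 3 ventral libraries lay between 72.3 and 72.8. Its gap to the nearest of them was 0.905 of the range of the 4 libraries, above Dixon's 95% critical value for 4 values. Of 20 groups of 4 libraries checked, covering the 8 members and the summed L and T types in both regions, this was the 1 that passed, and chance passes about 1 in 20. V4 also had the lowest ventral FPKM of *Cacna1c*, *Cacna1d*, *Cacna1g*, *Cacna1h* and *Cacna1i* and the highest of *Cacna1a*.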

How the results depend on the processing

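With regions named by the column headers, the limma log2 fold change turned for *Cacna1c* (−0.087), *Cacna1a* (0.068), *Cacna1e* (−0.038), *Cacna1g* (−0.034) and *Cacna1h* (−0.14), the log2 ratio of summed FPKM turned for the L (−0.035) and T (−0.11) types, and 0 members were called in either direction, beside 1 gene D>V and 0 V>D of all genes tested. With only the 4 libraries on which headers and means give the same region, 0 members and 0 genes were called in either direction, with 2 libraries per region. With libraries rescaled to one total, 0 members and 195 genes were called D>V. With no FPKM filter and with a minimum FPKM of 5, 1 member was called D>V. *Cacna1h* has no value under the latter.

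Leaving out each library in turn called 0 to 1 member D>V and 1 to 3 V>D, and 157 to 341 genes D>V and 91 to 191 V>D, the fewest D>V without V1, V2 or D3 and the fewest V>D without V1, D2, D3 or D4. The fold changes of 2 members that were not called crossed 0, from −0.050 to 0.044 for *Cacna1d* and from −0.0037 to 0.071 for *Cacna1b*, while the L and T type ratios stayed between 0.12 and 0.21 and between 0.20 and 0.34. The cause of these changes was not tested. Other alternatives (added constant, alignment filter, quantile normalization, library weights, no ratio threshold) changed no member's call, and omitting the trend ended that of *Cacna1e*. No paired analysis was possible because the columns name no group of mice. With 4 pools per region, small differences are not detectable.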
